A study of Rattus norvegicus with 7 samples.

Results

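The miR-29 family on these arrays was 3 of the 677 rat miRNAs measured, namely rno-miR-29a, rno-miR-29b and rno-miR-29c. They were taken by name from the scanner output, and the strands that the array lists with a star were kept apart. The arrays held total RNA of pancreatic islets, prepared by collagenase digestion from male Wistar rats. There were 4 rats of 12 months of age (replicates 2, 4, 10 and 16) and 3 rats of 3 months of age (replicates 9, 11 and 13), with 1 Agilent single-colour array per rat. The labels name no treatment and no genetic change in either age group. Isolated islets hold endocrine cells together with vessels, stroma and remnants of exocrine tissue, so each value is an average over these cells.

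The seed of a miRNA, the stretch near its 5′ end that pairs with target mRNAs, is identical in all members of this family, and a family is expected to share many targets for that reason. miR-29 is best known for repressing genes of the extracellular matrix, among them collagens, elastin and fibrillins. In beta cells it represses Slc16a1, which encodes a monocarboxylate transporter that mature beta cells keep low. The comparison by age addressed whether the islet miRNA profile of older rats differs from that of young ones.

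The mature sequences are shown because they set what an array probe can and cannot separate. They come from RefSeq (build GRCr8), in which all 3 members were found under their names with the suffix of the 3′ arm, and the capitals mark the seed, positions 2 to 8 counted from the 5′ end.
rno-miR-29a: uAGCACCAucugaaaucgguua
rno-miR-29b: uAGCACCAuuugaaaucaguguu
rno-miR-29c: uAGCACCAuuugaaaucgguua
Of the 694 mature rat sequences in the RefSeq table, these 3 were the ones with this seed. Between miR-29a and miR-29c there was 1 substitution, C10U, so that 21 of 22 bases were the same. miR-29b differed from miR-29c by G18A, U21G and A22U, and from miR-29a by C10U in addition, and it had 1 base more at its 3′ end. The files hold no probe sequences, and whether a probe for one member also bound the others was not tested. Signals of miR-29a and miR-29c in particular are uncertain to that extent.

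The members lie in a pair of clusters. Mature miR-29a lies at chr4:60617968-60617989 on the minus strand (GRCr8), and a copy of miR-29b lies at chr4:60618342-60618364, also on the minus strand. Their hairpins are 291 bases apart, with no annotated gene between them. The second copy of miR-29b lies at chr13:109098882-109098904 on the plus strand and miR-29c at chr13:109099412-109099433. These hairpins are 447 bases apart, again with no gene between them, and the annotated gene LOC102550527 spans both. The mature miR-29b sequence is the same from either hairpin, so its array signal cannot be assigned to a cluster.

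The arrays of older rats were brighter as a whole, and this bears on every value that follows. Agilent's software called 278 to 296 miRNAs detected at 12 months and 246 to 272 at 3 months. The median difference between the ages before any scaling, over the 272 miRNAs tested, was 0.79 on the log2 scale. Control RNAs added at hybridisation did not show a shift of this size (mean log2 signal 14.3 in both groups, with an SD of 0.133 over the 4 older and 0.0467 over the 3 younger rats; exact permutation p = 0.829). Those added before labelling had values of 12.2 ± 0.248 and 12.0 ± 0.0448 (exact permutation p = 0.257). No spot was saturated on any array. Fewer cells of a type and less RNA per cell cannot be told apart in RNA of whole islets.

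All 3 members were among the brightest miRNAs of the islets, at both ages. The total gene signal of a miRNA is the sum over its probes in linear units. Each probe enters with 1 background-subtracted signal that summarises its spots. This signal placed miR-29b at rank 1 or 2 of 677 on every array. miR-29a had rank 3 or 4 and miR-29c ranks 7 to 10. Probes differ in how much signal they give per molecule, so this order is one of brightness and not of copy number. Together the members gave 19.4 ± 0.664% of the summed miRNA signal in the older rats (SD, n = 4). In the young rats they gave 15.9 ± 0.604% (SD, n = 3). The lowest share at 12 months was 18.5% and the highest at 3 months 16.3% (exact permutation of the mean difference, two-sided p = 0.0286, below which 4 arrays against 3 cannot go). For miR-29b alone the shares were 9.70 ± 0.336% and 7.62 ± 0.322%.

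Before scaling, the signal of miR-29b was 40705, 32414, 26070 and 37263 units in the 12-month-old rats (replicates 2, 4, 10 and 16). It was 14639, 18923 and 12310 units in the 3-month-old rats (replicates 9, 11 and 13). Replicate 10 was the dimmest of the older rats, replicate 11 the brightest of the young ones, and the ages did not overlap. The same order of rats was seen for miR-29a, with 24331, 19163, 16513 and 22789 units at 12 months. At 3 months miR-29a had 9563, 12451 and 8593 units. miR-29c had 15669, 12517, 10517 and 14411 units at 12 months, and 6573, 7834 and 4989 at 3 months. The mean signal at 12 months was 2.03 times that at 3 months for miR-29a, 2.23 times for miR-29b and 2.05 times for miR-29c.

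**Figure D1:**
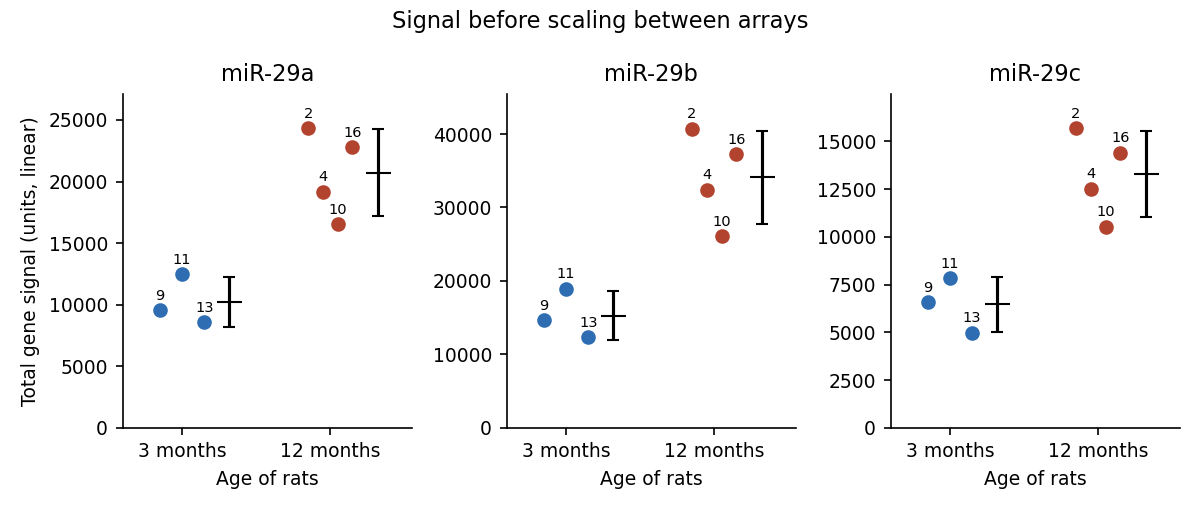
Total gene signal in linear units (y axis, from 0) of miR-29a, miR-29b and miR-29c against the age of the rats. Points are single arrays with their replicate numbers, and the bars give the mean ± SD of 4 and 3 arrays. In each panel every 12-month-old array lies above every 3-month-old array, and replicate 10 is the lowest of the older rats.

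On this unscaled log2 signal, all 3 members were past the threshold, with differences of 1.02 (miR-29a, SE 0.27), 1.16 (miR-29b, SE 0.27) and 1.05 (miR-29c, SE 0.27) and limma adjusted p values of 0.0167, 0.0114 and 0.0167. Most other miRNAs behaved in the same way. Of all 272 tested, 62.1% were called higher at 12 months before scaling, and 48.2% did not overlap between the ages in that direction. The rise of the members before scaling is therefore read against a background in which a rise was common.

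Scaling took out the part that the members shared with the array as a whole. Each array's log2 signal was set relative to the 75th percentile of the miRNAs detected on all arrays, and all values from here on are on that scale unless another is named. miR-29b then had 5.82, 5.55, 5.51 and 5.75 at 12 months and 5.22, 5.37 and 5.07 at 3 months. The means were 5.66 ± 0.15 (SD, n = 4) and 5.22 ± 0.147 (SD, n = 3), and the ages did not overlap. The difference was 0.44 on the log2 scale (SE 0.16, 95% confidence interval 0.07 to 0.80), or 1.35-fold. Its unadjusted limma p was 0.0237, and adjusted over all miRNAs tested it was 0.154, so the difference did not pass the threshold of 0.05.

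miR-29a had 5.08, 4.79, 4.85 and 5.04 at 12 months and 4.61, 4.76 and 4.55 at 3 months. The lowest older rat, replicate 4, was just above the highest young rat, replicate 11. The difference was 0.30 (SE 0.15, interval -0.05 to 0.65, limma adjusted p = 0.333), or 1.23-fold. miR-29c had 4.44, 4.18, 4.20 and 4.37 at 12 months and 4.07, 4.09 and 3.77 at 3 months. Here too the groups did not overlap, and replicate 13 was the lowest of the young rats. The difference of miR-29c was 0.32 (SE 0.16, interval -0.04 to 0.69, limma adjusted p = 0.313), or 1.25-fold. The arrays lay in 2 rows of a slide that both held both ages. Within the upper row, with 1 young rat, the differences were 0.33, 0.47 and 0.25 for miR-29a, miR-29b and miR-29c, and within the lower row, with 2 young rats, 0.29, 0.41 and 0.36.

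**Figure D2:**
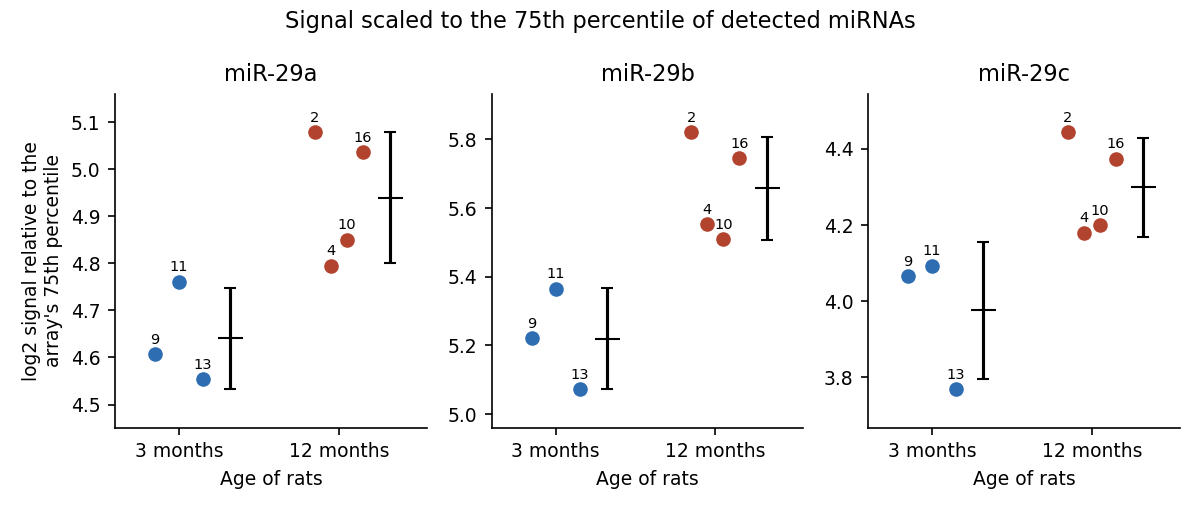
log2 signal relative to the 75th percentile of each array (y axis) for the members, by age of the rats. Points are single arrays with replicate numbers, and the bars give the mean ± SD. The ages do not overlap in any of the 3 panels, and in the miR-29a panel replicate 4 at 4.79 and replicate 11 at 4.76 almost meet.

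As single values, miR-29b and miR-29c had a two-sided exact permutation p of 0.0286, and miR-29a one of 0.0571. Thus 3 of 3 members were higher in every older rat than in every young rat, and 0 of 3 passed the adjusted limma threshold, with 1 of 3 below 0.05 before adjustment. Among all 272 miRNAs, 6.25% did not overlap with higher values at 12 months, 7.72% had an adjusted p below 0.05 in either direction, and 1.47% were called higher. The median difference was 0.32 over the members and 0.07 over all miRNAs tested. The members are not independent of each other, since they share sequence and arrays. In the order of the differences, 34 miRNAs lay above miR-29b, 46 above miR-29c and 50 above miR-29a. None of the 48 miRNAs other than members with a larger difference than miR-29a was as bright as the dimmest member. The brightest of them had a mean value of 2.60 against 4.16 for miR-29c. By mean value miR-29c had rank 9, so few miRNAs outside the family were that bright at any difference, and their absence here says little.

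**Figure D3:**
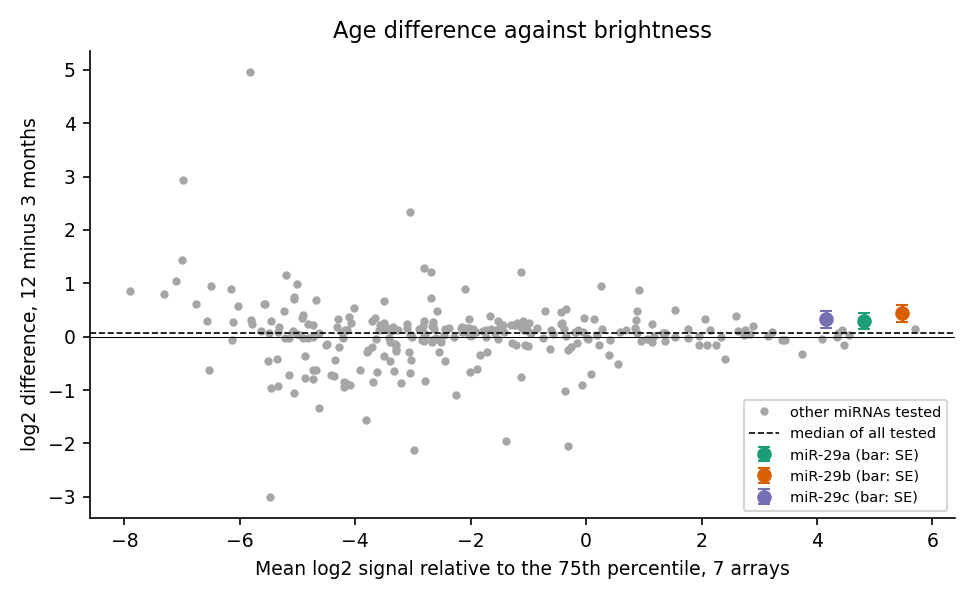
log2 difference between the ages (12 minus 3 months, y axis) against the mean log2 signal relative to the 75th percentile over 7 arrays (x axis), for the 272 miRNAs tested. Grey points are other miRNAs, coloured points are the members with their SE, and the dashed line is the median of all, 0.07. At the bright end on the right the members, at 0.30 to 0.44, lie above the others, and the larger differences are found among dim miRNAs on the left.

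Among the 10 brightest miRNAs the members were the only ones whose ages did not overlap. Over all 272 miRNAs tested, 6.25% did not overlap with higher values at 12 months, so 0 of the other 7 is near that share. The members are not independent of each other. The other 7 were miR-7a, let-7a, let-7b, let-7c, let-7f, miR-375 and miR-23b. Their differences ran from -0.15 (miR-375) to 0.15 (miR-7a), and the limma adjusted p was above 0.05 for all 10. The study names U6 or miR-7 as the reference for its qPCR of miRNAs. The values of miR-7a, which is abundant in endocrine cells, were 6.0, 5.81, 5.32 and 5.96 at 12 months and 5.57, 5.74 and 5.56 at 3 months, so it overlapped, with replicate 10 lowest of all. miR-375, the other well-known islet miRNA, had 4.52, 4.37, 4.12 and 4.58 against 4.71, 4.43 and 4.51.

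Ratios taken within an array do not depend on a scaling by 1 factor per array, though quantile normalization changes them. Relative to miR-7a, the log2 ratio of miR-29b was -0.18, -0.25, 0.19 and -0.21 at 12 months and -0.35, -0.37 and -0.49 at 3 months. The difference was 0.29 (exact permutation p = 0.0571, 0.0857 adjusted over 6 ratios to miR-7a and miR-375). Replicate 10 was the one rat with a ratio above 0. The ratios of miR-29a and miR-29c to miR-7a overlapped between the ages, with differences of 0.15 and 0.18 (exact permutation p = 0.4 for both). Without replicate 10 the differences relative to miR-7a were 0.03 for miR-29a, 0.19 for miR-29b and 0.06 for miR-29c. Without replicate 13 that of miR-29c was 0.11. Relative to miR-375, each member was higher in every older rat, by 0.45 for miR-29a, 0.59 for miR-29b and 0.48 for miR-29c (exact permutation p = 0.0286 for each, 0.0571 adjusted over the 6 ratios).

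On the total gene signal, miR-29b differed more between the ages than the other members. The log2 ratio of miR-29b to miR-29a was 0.74, 0.76, 0.66 and 0.71 at 12 months and 0.61, 0.60 and 0.52 at 3 months. All older rats lay above all young rats, and the difference was 0.14 (exact permutation p = 0.0286, 0.0429 adjusted over the 3 pairs of members). It was 0.14 within the upper row of the slide and 0.12 within the lower one. In the deposited matrix of quantile-normalised values that the authors deposited it was 0.25 with an exact permutation p of 0.0857. After quantile normalization, which fixes the rank values, it turned to -0.08 (exact permutation p = 0.486).

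The ratio of miR-29b to miR-29c was 1.38, 1.37, 1.31 and 1.37 at 12 months and 1.16, 1.27 and 1.30 at 3 months, a difference of 0.11 with the same p values. Here the ages nearly touched, at replicate 10 (1.31) and replicate 13 (1.30). With the mean of the spots in place of the total gene signal, this second difference was 0.10 and its exact permutation p 0.0857. It was 0.22 within the upper row of the slide and 0.05 within the lower one, and 0.07 without replicate 9, the one young rat of the upper row. After quantile normalization it turned to -0.14 (exact permutation p = 0.257).

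Between miR-29c and miR-29a, which differ by 1 base, no difference of ratios was detected. Their log2 ratio was -0.64 in the older rats, with an SD of 0.0204 (n = 4), and -0.66 in the young ones, with an SD of 0.122 (n = 3), a difference of 0.02 (exact permutation p = 0.657). In the young rats it ranged from -0.54 in replicate 9 to -0.78 in replicate 13, a range wider than the difference between the ages, whose sign turned without replicate 13 (-0.04).

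**Figure D4:**
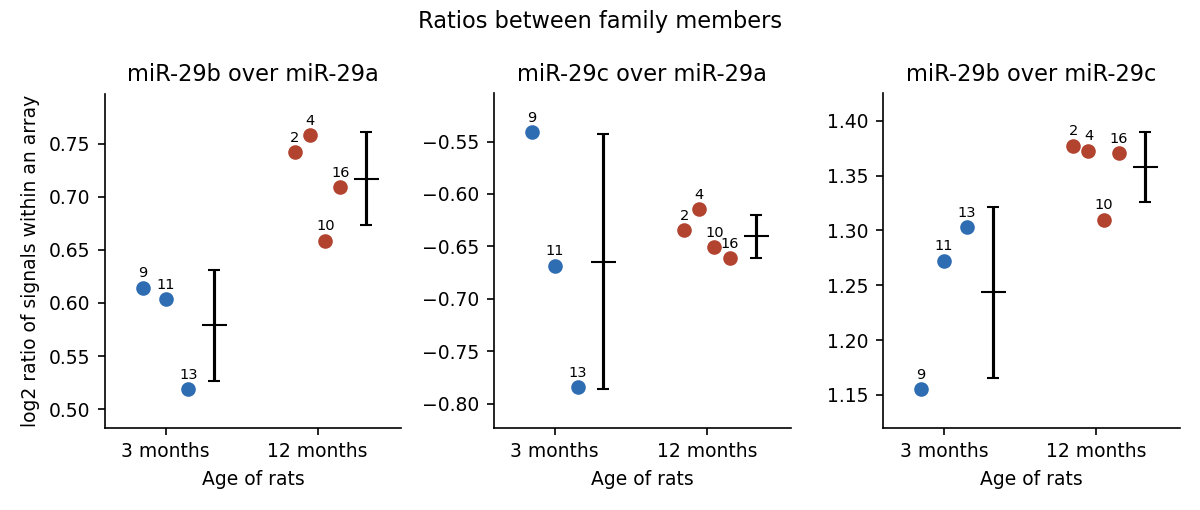
log2 ratio of the signals of pairs of members within each array (y axis) by age of the rats. Points are single arrays with replicate numbers, and the bars give the mean ± SD. The ages do not overlap for miR-29b over miR-29a and for miR-29b over miR-29c, where replicates 10 and 13 lie next to each other, and they overlap for miR-29c over miR-29a.

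Every member was read by 2 probes with 10 spots each, and the probes of a member moved together. Their age differences were 0.26 and 0.31 for miR-29a, 0.41 and 0.45 for miR-29b, and 0.31 and 0.33 for miR-29c. The larger value came from the brighter probe in each member, and miR-29b was the brightest member. Whether brightness plays a part in the ratios between members was not tested. In all 6 probes every older rat lay above every young rat, but for miR-29a the ages nearly met. Its dimmer probe had 2.72465 in replicate 4 and 2.72411 in replicate 11, which is a tie within the spread of the spots. Its brighter probe had 4.40 and 4.36 in these rats. The coefficient of variation over the spots of a probe within an array had a median of 3.28% for miR-29a, 2.82% for miR-29b and 3.59% for miR-29c, and its highest value was 4.92%. On the log2 scale the spots thus had a median SD of 0.05, 0.04 and 0.05, while the SD between rats of one age ran from 0.11 to 0.18. With 1 array per rat, the spread between rats also holds that of labelling and hybridisation. The brightest spot of a member had 40133 units, and spot signals are not on the scale of the total gene signal.

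The opposite strands of the hairpins, which are mostly degraded when the guide strand is loaded, were dim. miR-29c* was the one detected on all 7 arrays, with 397, 313, 244 and 362 units at 12 months and 190, 209 and 131 at 3 months. Its RefSeq counterpart by name is the 5′ arm of the same hairpin, shown with its own seed in capitals because that seed is not the one of the family.
rno-miR-29c-5p: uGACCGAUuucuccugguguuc
On the scaled values miR-29c* differed by 0.18 (SE 0.18, limma adjusted p = 0.727), and the ages overlapped. miR-29a* had under 10 units everywhere and was detected on 3 of the 4 older arrays and 1 of the 3 young ones. miR-29b-1* was detected on 0 of 7 arrays and miR-29b-2* on 1. The strands that could have told the copies of miR-29b apart were therefore not well above background, and no fold is given for them.

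Across the 7 arrays, with both ages together, the miRNAs whose values were most like those of a member were the other members. Over the 237 other miRNAs detected on all arrays, the highest Pearson r with miR-29a was 0.981 for miR-29b, followed by 0.946 for miR-29c. For miR-29b and miR-29c the r was 0.968. With the age means taken out, these were 0.952, 0.856 and 0.933, while the median over all 237 miRNAs was 0.383 with miR-29a, 0.462 with miR-29b and 0.388 with miR-29c. On these deviations the members were not the closest in every case. miR-352 (0.884) was closer to miR-29a than miR-29c was, and miR-499 (0.882) closer to miR-29c than miR-29a was. In all, 3 miRNAs outside the family were closer to miR-29a, 2 to miR-29b and 13 to miR-29c than the less similar of the other members. All values come from the same 7 arrays and share their scaling, and the members share much of their sequence. The next most similar were miR-352 and both star strands of miR-129 for miR-29a, miR-129-2*, miR-652 and miR-129-1* for miR-29b, and miR-129-1*, miR-499 and miR-129-2* for miR-29c, with r from 0.875 to 0.939. miR-129-1* and miR-129-2* differed by 0.95 and 0.87 between the ages (limma adjusted p = 0.0536 and 0.0577).

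The size of the age difference followed the way the arrays were set against each other, while its sign was positive for every member under every scaling tried. After quantile normalization over all rat miRNAs the differences were 0.15, 0.07 and 0.21 for miR-29a, miR-29b and miR-29c. This scale gives each rank one value on all arrays. miR-29b held rank 2 on 6 arrays and rank 1 on that of replicate 10, so its value was 14.51 on those 6 and 14.81 on that array. In the matrix of quantile-normalised log2 values that the authors deposited, the differences were 0.40, 0.65 and 0.34. miR-29b passed the threshold there (limma adjusted p = 0.0371), among 1.63% of 307 miRNAs called higher, and miR-29a and miR-29c did not (0.113 and 0.222). Values shared by several arrays recur for the members in this matrix too. miR-29b stood at 14.81 in 3 older rats and at 14.10 in 2 young ones, so differences within such ties are not resolved.

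Relative to the labelling controls the differences were 0.81, 0.94 and 0.83, and miR-29b passed (limma adjusted p = 0.0456), where 12.1% of all miRNAs were called higher. Relative to the hybridisation controls they were 1.0, 1.14 and 1.02, and all 3 passed (limma adjusted p = 0.0139, 0.00955 and 0.0139), where the share called higher was 63.2%. These scalings also move the median of all miRNAs, to 0.58 and 0.77. Taken as the distance from that median, the members lay 0.23, 0.37 and 0.25 above it, the same under every scaling that shifts a whole array by 1 factor, as it must be. The distance was 0.10, 0.02 and 0.16 after quantile normalization and 0.33, 0.58 and 0.27 in the deposited matrix.

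**Figure D5:**
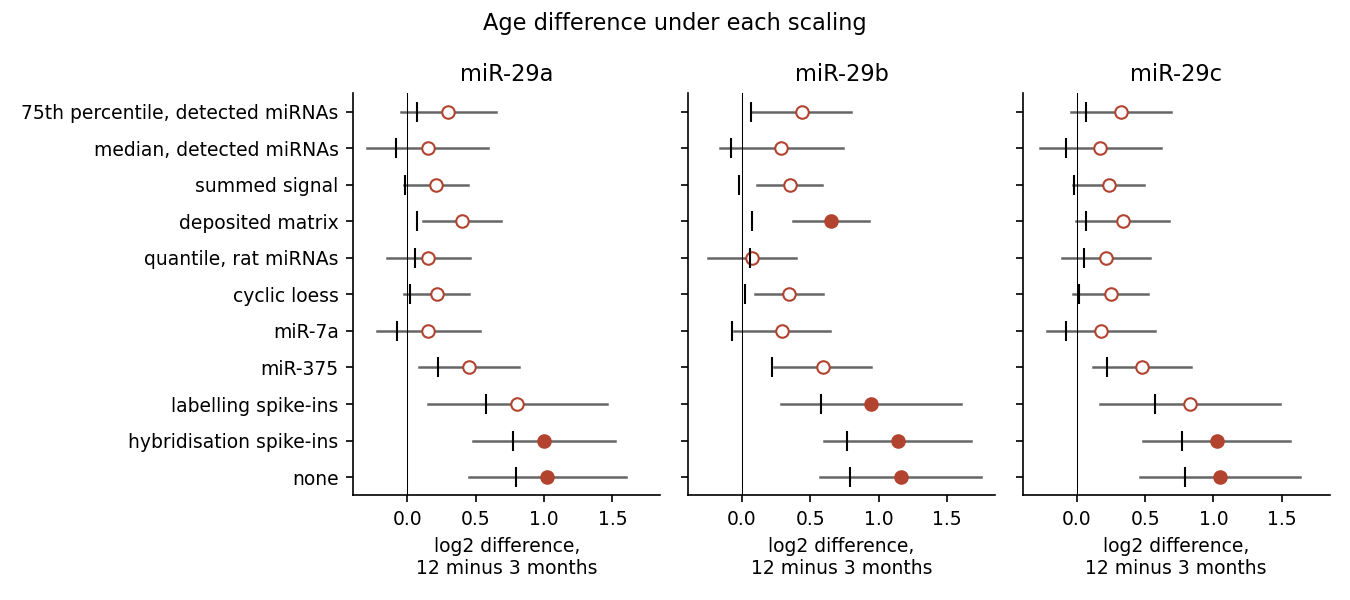
log2 difference between the ages (12 minus 3 months, x axis) of each member under 11 ways to scale the arrays (rows). Circles are estimates, filled where the limma adjusted p was below 0.05, lines are 95% confidence intervals, and vertical ticks are the median of all miRNAs tested. Every estimate is above 0, and the estimate and the median shift together where arrays are set to control RNAs or left unscaled.

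Islet preparations hold cells other than endocrine ones, and markers of these cells are given beside the members. None of the markers passed the adjusted threshold, and the scaled summed signal of every list overlapped between the ages, though some single markers did not overlap. Of the mesenchymal miRNAs miR-143, miR-145, miR-199a-3p, miR-199a-5p and miR-214, 5 of 5 had higher values at 12 months, with a median difference of 1.21, and 0 of 5 passed the limma threshold after adjustment. For miR-199a-3p, miR-199a-5p and miR-214 every older rat lay above every young rat, as for the members, while miR-143 and miR-145 overlapped. miR-199a-5p differed by 1.30 (SE 0.36, limma adjusted p = 0.0652). miR-199a-3p and miR-214 differed by 1.21 and 1.22 (limma adjusted p = 0.0883 and 0.0652). The summed signal of all 5 was 3.65 to 5.28 times the 75th percentile at 12 months and 2.01 to 3.73 times at 3 months. miR-143, which overlapped, was the brightest of the 5 (mean log2 value 1.76 at 12 months) and weighs most in this sum. miR-145 was detected on 6 of the 7 arrays and the other 4 on all of them. miR-29 is itself expressed in stromal cells, and the part of these cells in the members' difference was not tested.

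The exocrine miRNAs had values in the other direction. The 3 measured acinar miRNAs, namely miR-217, miR-216a and miR-216b-5p, had lower values at 12 months, with a median difference of -2.04, and none passed after adjustment (limma adjusted p = 0.160 to 0.210). Their summed signal was 0.207 to 2.53 times the 75th percentile at 12 months and 2.26 to 4.71 times at 3 months. Of the 4 leukocyte miRNAs 3 had higher values, with a median of 0.57, and the summed signals were 0.431 to 0.961 and 0.387 to 0.489. One of those with higher values, miR-142-5p (1.16), was detected on 4 of the 7 arrays, so it entered the test through 1 age. miR-142-3p, miR-150 and miR-223 were detected on all 7. Both endothelial miRNAs had higher values (median 0.26, summed 3.12 to 4.05 and 2.78 to 3.82), with miR-126* detected on 6 of the 7 arrays. Both measured erythroid ones had lower values (median -0.56, summed 0.200 to 0.416 and 0.189 to 0.572). The endocrine miRNAs miR-375, miR-7a and miR-7b were detected on all 7 arrays, 1 with a higher and 2 with a lower value, with a median of -0.07, and their summed signals were 59.3 to 89.8 and 73.0 to 77.3. The part of these cells in the difference of the members was not tested.

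The members were also set beside lists of miRNAs linked to ageing or to islet stress. Of the p53-responsive miR-34 family, miR-34a and miR-34b were tested and had differences of 0.34 and 0.99 (limma adjusted p = 0.687 and 0.0541), while miR-34c was detected on 3 arrays and not tested. The cytokine-induced miR-21, miR-146a and miR-146b had differences of 0.39, 0.10 and 0.19, with adjusted limma p values of 0.653, 0.918 and 0.654. Of 8 miRNAs abundant in beta cells, which include the miR-200 family, 2 had higher and 6 lower values, with a median of -0.05. The median difference was 0.32 for the members and 0.19 for the cytokine-induced list. For miR-34a and miR-34b it was 0.66, which rests on 2 values and on a filter that miR-34b passed through 1 age. None of these lists had a miRNA past the adjusted threshold.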

How the data were processed

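Islet total RNA of 4 rats of 12 months and 3 rats of 3 months was hybridised to Agilent 1-colour (Cy3) miRNA arrays. Per the labels and file headers, Agilent Feature Extraction 10.7.3.1 produced the deposited intensity values, which the authors did not scale between arrays, and a 0 or 1 flag for detection. The authors also deposited a matrix of quantile-normalised log2 values for 307 miRNAs. Each of its columns had a median of 6.44 and, over deviations from the row means, correlated best with its own array (r from 0.885 to 0.934). The scale is log2, and the features used for its normalization and any offset are not given in the sources used here.

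The total gene signal was floored at 1, put on the log2 scale and set relative to each array's 75th percentile over the 238 miRNAs detected on all arrays. This replaced quantile normalization, which the study used. Run over all rat miRNAs, it gives each rank one value on all arrays, and miR-29b lies in the highest ranks. In the authors' deposited matrix miR-29b was not held at one value, and its difference there was 0.65. The 272 miRNAs that the software detected in all rats of an age, at one age or both, were fitted with limma 3.58.1 (R 4.3.3), lmFit and eBayes, with Benjamini-Hochberg adjustment over all of them. Single values and ratios were tested by two-sided exact permutation over the 35 placements of 4 and 3 arrays. Alternatives covered the scaling, signal, background correction, floor, filter, variance model, array weights, row of the slide and each rat left out. Chosen after seeing the data were the scalings to control RNAs, to miR-375 and to the summed signal, and scaling before the floor. The fit was tested on simulated data. The members and lists were chosen with earlier results of these data known. Besides the members, the text names the star strands, miR-7a and miR-375, the 10 brightest miRNAs, the 5 most similar to each member, and examples of the lists. The series counts rats, so each sample was taken as 1 rat. The labels do not state whether islets of both ages were prepared together. The number of rats sets the precision. The coordinates are those of RefSeq on GRCr8, while the array's header names the older build rn4, from which none were taken.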

Additional observations from a re-analysis of the deposited data

Results flagged for a closer look

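In the group of 4 older rats, 37 measures were checked. Most were of the members, and the rest were of miR-29a*, miR-29c*, miR-7a, miR-375 and the control RNAs. In 9 of the 37, 1 rat lay far from the other 3. This was judged by the gap to the nearest rat as a share of the whole range (critical value 0.829). Chance alone gives about 1 in 20 for values without ties, and the measures are not independent. That rate does not hold on the quantile and deposited scales, where tied values can force the share to 1. In 7 of the 9 the rat apart was replicate 10. The share was 0.835 for the ratio of miR-29a to miR-7a, 0.834 for miR-29b to miR-7a and 0.864 for miR-29c to miR-7a, in which replicate 10 was highest, and 0.901 for miR-29b to miR-29c, in which it was lowest. After quantile normalization it was 1 for miR-29b and 1 for miR-29c, and in the deposited matrix 1 for miR-29b, because the other 3 rats had one and the same value. In the deposited matrix the share was 1 for miR-29a, with replicate 2 apart. For the share of miR-29a in the summed signal it was 0.834, with replicate 4 lowest. Replicate 10 also had the lowest array weight of all 7 rats, 0.264.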

How the results depend on the processing

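No paired analysis was possible because the ages share no replicate numbers. The difference kept its sign for all 3 members in all 32 alternatives. Those that changed only the floor, the filter, the variance model or the test returned the main estimate, so their sign could not turn. miR-29a ran from 0.15 to 1.02 and passed the threshold with no scaling (1.02) and with the hybridisation controls (1.0). miR-29c ran from 0.17 to 1.05 and passed under the same conditions (1.05 and 1.02). miR-29b ran from 0.07 to 1.16 and passed in 6, namely the deposited matrix (0.65), no scaling (1.16), the labelling (0.94) and hybridisation controls (1.14), normexp background correction (0.48, limma adjusted p = 0.0393) and no filter (0.44, limma adjusted p = 0.0283). Without a filter, signals at the floor carry the array's scaling as a difference. With scaling before the floor and no filter, the limma adjusted p of miR-29b was 0.189. With each rat left out in turn, the differences were 0.25 to 0.36 for miR-29a, 0.38 to 0.51 for miR-29b and 0.26 to 0.38 for miR-29c, none past the threshold.

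The ratio of miR-29b to miR-29a differed by 0.25 in the deposited matrix (exact permutation p = 0.0857), and that of miR-29b to miR-29c by 0.10 with the mean of the spots (exact permutation p = 0.0857) and 0.10 with normexp (exact permutation p = 0.0571), 0.22 within the upper and 0.052 within the lower row. After quantile normalization, added after seeing the data, the differences of the ratios of miR-29b to miR-29a and to miR-29c turned to -0.080 and -0.14 (exact permutation p = 0.486 and 0.257). That scale holds the rank of miR-29b fixed on 6 of the 7 arrays. The ratio of miR-29c to miR-29a turned in the deposited matrix (-0.061), within the upper row (-0.084) and without replicate 13 (-0.036), and the cause was not tested. With each rat left out, the ratios of miR-29b to miR-29a, of miR-29b to miR-29c and of miR-29c to miR-29a differed by 0.11 to 0.16, 0.07 to 0.14 and -0.036 to 0.086. No permutation test was run with a rat left out.

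The number of miRNAs called, 21 of 272 with 4 higher at 12 months, was 4 with quantile normalization (3 higher), 8 in the deposited matrix (5 higher), 10 with the 75th percentile of all miRNAs (8 higher), 34 with the median (7 higher), 1 with cyclic loess (1 higher, and 51 at an unadjusted limma p below 0.05), 171 with no scaling (169 higher), 38 with the labelling (33 higher) and 174 with the hybridisation controls (172 higher), 4 with miR-375 (3 higher), 365 of 677 with no filter (25 higher) and 38 with array weights (7 higher). With each rat left out it was 4 to 39. It was 4 without replicate 2, 16 or 9, 5 without replicate 13, 13 without replicate 4 and 39 without replicate 10. The methods' t-test gave 47 miRNAs at an unadjusted p below 0.05 and 15 after Benjamini-Hochberg adjustment. The cause of these shifts was not tested.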
